A study of Homo sapiens with 15 samples.

Results

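The genes of cholesterol and fatty acid synthesis were followed in SW480 cells, an established line from a human colorectal carcinoma, labelled as intestinal epithelial. The 32 genes were taken by symbol from a list of the mevalonate pathway, the sterol pathway, the SREBP regulators and the fatty acid enzymes, drawn up with earlier results of these data known. They are 32 of 57905 genes in the expression table, and all 32 were among the 17214 genes abundant enough to be tested. The 4 groups hold 3 libraries each, counted as columns of values. For PINT shRNA1 the labels list 2 samples per column, and whether a column holds 1 of them or both is not stated. PINT shRNA1+LPS and PINT shRNA1 are cells labelled as stably carrying a lentiviral short hairpin RNA (a transcribed RNA that is processed into a silencing RNA) against PINT, a long non-coding RNA. The first of these received 1 µg/ml of lipopolysaccharide (LPS), a component of the bacterial wall, over 4 h, and the second received phosphate-buffered saline over the same time. LPS is wild-type SW480 with the same LPS exposure, and Control is wild-type SW480 with saline. All cells grew in medium with fetal bovine serum, which supplies cholesterol and fatty acids. PINT shRNA1 stands for a single hairpin sequence, and no group is labelled as having a non-targeting one, so lentiviral transduction and the hairpin cannot be told apart. Whether replicates are separate cultures is not stated, and a p-value then covers the spread among libraries alone, which may be technical.

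Cells make cholesterol from acetyl-CoA through mevalonate, isoprenoid pyrophosphates, squalene and lanosterol. They make fatty acids from the same acetyl-CoA and then elongate and desaturate them. Both routes are switched on at the gene level by the sterol regulatory element-binding proteins, of which the SREBF2 product acts mostly on sterol genes and the SREBF1 products on sterol and fatty acid genes. These factors are made in the endoplasmic reticulum, where SCAP escorts them to the Golgi for cleavage when sterols are scarce and the INSIG proteins hold SCAP back when sterols are plentiful. In the intestine, epithelial cells both take up dietary sterol and make their own.

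The unit throughout is FPKM, a fragment count scaled to transcript length and library size, which lets levels of different genes be set side by side. The number of reads behind a value is unknown. Estimated depth relative to that of Control replicate 1 ranged from 1.3 to 1.51 in the PINT shRNA1+LPS libraries and 0.914 to 1.05 in PINT shRNA1. It ranged from 0.848 to 0.858 in LPS and 0.809 to 1 in Control. Between 30725 and 31961 genes were above 0 in a hairpin-labelled library, against 27078 to 28430 in a library without that label. The transcript that the hairpin targets, listed as LINC-PINT (ENSG00000231721), was at 3.54, 4 and 4.08 FPKM in PINT shRNA1+LPS, 4.55, 5.26 and 5.34 in PINT shRNA1, 2.4, 2.82 and 1.91 in LPS and 2.88, 2.56 and 2.51 in Control. Every hairpin-labelled library thus had more of it and not less (exact permutation test, two-sided p = 0.1 for either comparison, the smallest that 3 against 3 libraries allow). In the limma fit described below it was higher by 0.61 ± 0.12 against LPS and 0.81 ± 0.12 against Control on the log2 scale (limma, adjusted p = 0.00284 and 0.000592), so the names of these groups stand for their labels and not for reduced PINT. Of 8 epithelial marker genes, 7 were tested. In both hairpin comparisons 5 of the 7 (71.4%) fell (EPCAM, KRT8, KRT18, KRT19 and VIL1), CDX2 (14.3%) rose and CDH1 was not called. Of all genes tested, 11.6% fell under LPS and 10.3% without it, and 17.7% and 16.9% rose. CDX1 was at 0 in every library. The summed level of the 8 was 1547 to 1606 FPKM in PINT shRNA1+LPS, 1441 to 1536 in PINT shRNA1, 2363 to 2407 in LPS and 2343 to 2667 in Control. The 8 leukocyte markers summed to 3.66 to 4.2, 3.46 to 5, 3.01 to 4.11 and 2.93 to 3.98 FPKM in the same order of groups. Of these, 3 were tested, and CD68, a lysosomal protein of macrophages that other cells also make, was higher with the label (1.63 ± 0.139 and 1.45 ± 0.129 FPKM in PINT shRNA1+LPS and PINT shRNA1, against 0.886 ± 0.204 in LPS and 0.751 ± 0.0678 in Control, mean ± SD, n = 3), by 0.63 ± 0.12 and 0.64 ± 0.12 on the log2 scale (limma, adjusted p = 0.00285 and 0.00295). The 6 adipocyte and hepatocyte markers summed to 0.09 to 0.177, 0.193 to 0.39, 0.11 to 0.215 and 0.186 to 0.319 FPKM. The fibroblast and endothelial markers summed to 0.978 to 1.5, 1.09 to 1.35, 0.925 to 1.32 and 0.772 to 0.909 FPKM. The number of genes above 0, the epithelial markers and CD68 moved with the hairpin label. Estimated depth was highest in PINT shRNA1+LPS. The part of all these in the results below was not tested.

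The promoters of 4 of the 32 genes are shown, from 250 bases before to 50 bases after the transcription start (RefSeq, GRCh38.p14, all on the plus strand). SREBF2 at chr22:41832855-41833154 is the only one of the 28 genes with a promoter in the table that holds the sterol regulatory element word TCACNCCAC. MSMO1 at chr4:165327419-165327718 and HSD17B7 at chr1:162790452-162790751 fell the most of the genes from squalene to cholesterol in both hairpin comparisons, and INSIG2 at chr2:118088221-118088520 rose in both. These last 3 were picked after their values were seen. Capitals mark TCACCCCAC and the CCAAT box, a word bound by nuclear factor Y, written ATTGG where it lies on the other strand.
SREBF2: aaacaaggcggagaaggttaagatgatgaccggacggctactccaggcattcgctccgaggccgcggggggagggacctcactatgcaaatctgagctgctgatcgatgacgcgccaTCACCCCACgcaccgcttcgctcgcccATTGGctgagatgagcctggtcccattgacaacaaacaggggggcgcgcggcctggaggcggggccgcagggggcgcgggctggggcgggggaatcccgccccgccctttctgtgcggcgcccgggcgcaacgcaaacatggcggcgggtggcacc
MSMO1: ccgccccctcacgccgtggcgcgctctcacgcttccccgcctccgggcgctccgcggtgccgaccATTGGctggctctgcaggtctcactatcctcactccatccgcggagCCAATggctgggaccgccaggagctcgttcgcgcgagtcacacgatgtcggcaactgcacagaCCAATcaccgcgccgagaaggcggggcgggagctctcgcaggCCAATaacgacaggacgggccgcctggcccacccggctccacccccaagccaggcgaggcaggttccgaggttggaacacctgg
HSD17B7: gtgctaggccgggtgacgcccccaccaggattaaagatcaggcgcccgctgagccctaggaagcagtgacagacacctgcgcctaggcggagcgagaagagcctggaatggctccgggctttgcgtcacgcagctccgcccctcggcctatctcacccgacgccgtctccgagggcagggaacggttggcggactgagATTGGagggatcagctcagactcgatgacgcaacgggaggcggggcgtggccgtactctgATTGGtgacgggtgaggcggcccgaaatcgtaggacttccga
INSIG2: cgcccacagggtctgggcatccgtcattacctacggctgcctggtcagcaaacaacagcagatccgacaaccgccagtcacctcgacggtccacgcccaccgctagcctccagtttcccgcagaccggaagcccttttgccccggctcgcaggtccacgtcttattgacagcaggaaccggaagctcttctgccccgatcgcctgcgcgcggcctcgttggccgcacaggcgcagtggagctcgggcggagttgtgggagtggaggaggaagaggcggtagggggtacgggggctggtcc
Counting the first transcribed base as 1, TCACCCCAC begins at -133 in SREBF2 and a reversed CCAAT at -106. MSMO1 has 4 CCAAT boxes, beginning at -185, -139, -76 and -34, and HSD17B7 has a reversed one at -52 and another at 9. INSIG2 has none in this window.

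The same words were counted on both strands in the promoters of all 28 genes. CCAAT was in the promoters of 20 of 28 genes, against 39.7% of all 27305 genes with a promoter in the table. Among the genes that fell in both hairpin comparisons, 12 of 13 with a promoter held CCAAT. The exception, CYP51A1, had the smallest p of the limma fit in both and is not among the promoters shown. None of the 4 that rose held CCAAT, and 8 of the 11 others did. These sets are calls from the same data. The calls of ELOVL6, SREBF1 and SCAP among the 4, and of DHCR7, MVD and ACLY among the 13, depended on the settings, as given below. GGGCGG, a word bound by Sp1, was in 26 of 28, against 48.3% of all genes. TCACNCCAC was in 1 of 28, against 1.39% of all genes. CACGTG, the E-box that SREBP also binds, was in 3 of 28 (INSIG1, LSS and SCAP), against 8.77% of all genes. Where a gene has several promoters in the table, a match in any of them counted. The 27305 genes were not limited to the 17214 tested for expression, while the 28 were all tested. The part of expression in these differences of share was not tested. A match describes the letters only and is not evidence of a bound factor. FDFT1, ACAT2, FASN and SQLE had no entry.

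Expression of the 32 genes spanned more than an order of magnitude in Control. SCD, the stearoyl-CoA desaturase that makes oleate, was the most abundant at 162 ± 2.26 FPKM (mean ± SD, n = 3). FDPS (79.4 ± 0.872), ACLY (69.7 ± 3.46), CYP51A1 (61.4 ± 1.2) and MSMO1 (59.9 ± 0.242) followed, each apart from the next by more than the larger SD of the pair. The next 9, FASN, STARD4, DHCR7, LBR, FADS1, INSIG1, SQLE, HMGCS1 and NSDHL, ran down to 34.5 ± 1.31 FPKM with no neighbours apart by more than that SD. IDI1, ACACA and ACAT2 formed a step near 29.2 FPKM, FDFT1 and SREBF2 one near 23.8, and LSS, EBP, SCAP, SREBF1, INSIG2, FADS2 and GGPS1 another from 17.1 to 12.7. At the low end stood MVD (9.5 ± 1.16), MVK (8.28 ± 0.813), HSD17B7 (7.91 ± 0.256), PMVK (7.52 ± 0.26), TM7SF2 (6.91 ± 0.665) and ELOVL6 (6.03 ± 0.59), where MVK and HSD17B7, and PMVK and TM7SF2, were not apart beyond it. Summed over the 32 genes, the level was 839.7 to 893 FPKM in the PINT shRNA1+LPS libraries, 851 to 912 in PINT shRNA1, 1091 to 1174 in LPS and 1066 to 1139 in Control. Every library labelled with the hairpin was therefore below every library without it, and the ranges with and without LPS overlapped on either side.

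The sums were lower with the hairpin label for the enzymes, and they overlapped for the regulators. The 8 mevalonate and isoprenoid genes summed to 136 to 159 FPKM in PINT shRNA1+LPS, 161 to 172 in PINT shRNA1, 209 to 220.1 in LPS and 196 to 220.5 in Control. The 11 genes from squalene to cholesterol summed to 258 to 283, 271 to 284, 345 to 412 and 344 to 380.2 FPKM in the same groups, and the 7 fatty acid genes to 284 to 316, 287 to 316, 354 to 399.7 and 372 to 386. In all of these the groups with and without the hairpin label did not overlap. Most of the difference in the fatty acid sum was that of SCD. It averaged 106 FPKM in PINT shRNA1+LPS and 108 in PINT shRNA1, against 170 in LPS and 162 in Control. Of the other fatty acid genes, ACLY and FADS2 fell, ELOVL6 rose, and ACACA, FASN and FADS1 were not called in the test described below. The 6 SREBP regulators summed to 139 to 152, 132 to 154, 149.9 to 175 and 145 to 171 FPKM, ranges that overlap.

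**Figure D1:**
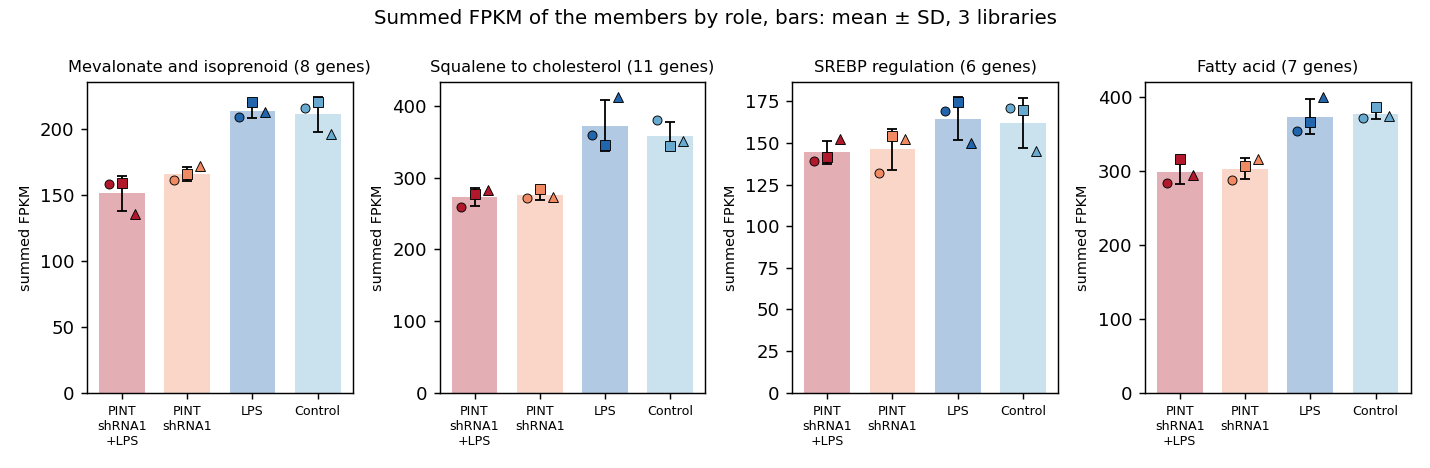
Summed FPKM of the genes of each role (vertical axes, from 0) in every library of the 4 groups, with circles, squares and triangles for replicates 1, 2 and 3 and bars and error bars for mean ± SD of 3 libraries. For the mevalonate, squalene to cholesterol and fatty acid genes all libraries with the hairpin label sit below all those without it, while the sums of the SREBP regulators overlap.

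The largest differences lay between libraries with and without the hairpin label, and the same 19 genes were called with and without LPS. In PINT shRNA1+LPS against LPS, 15 of the 32 genes fell and 4 rose (limma on log2(FPKM + 0.5), adjusted p under 0.05 over all genes tested). That is 46.9% lower and 12.5% higher, where 29.2% of all genes tested were called, 11.6% lower and 17.7% higher. In PINT shRNA1 against Control, the same 15 genes fell and the same 4 rose, where 27.3% of all genes tested were called, 10.3% lower and 16.9% higher. The share of the 32 that fell was thus well above that of all genes in either comparison, and the share that rose was below it. The median log2 fold change of the 32 was -0.36 under LPS and -0.25 without it, against 0.053 and 0.057 over all genes tested. The 15 that fell ranged from -1.06 to -0.17 (median -0.63) under LPS and from -0.96 to -0.16 (median -0.56) without it. These are changes of bulk RNA, in which fewer cells expressing a gene and less of its RNA per cell cannot be told apart.

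The split of all genes into higher and lower depended on the scaling between libraries. Of the genes called, 3039 were higher and 1994 lower in PINT shRNA1+LPS against LPS, which became 2385 and 2549 with median scaling and 2561 and 2361 with quantile normalization. In PINT shRNA1 against Control, 2913 were higher and 1780 lower, which became 2232 and 2135, and 2263 and 2204. No log2 fold change of the 32 genes that was called in these comparisons turned its sign under any scaling.

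**Figure D2:**
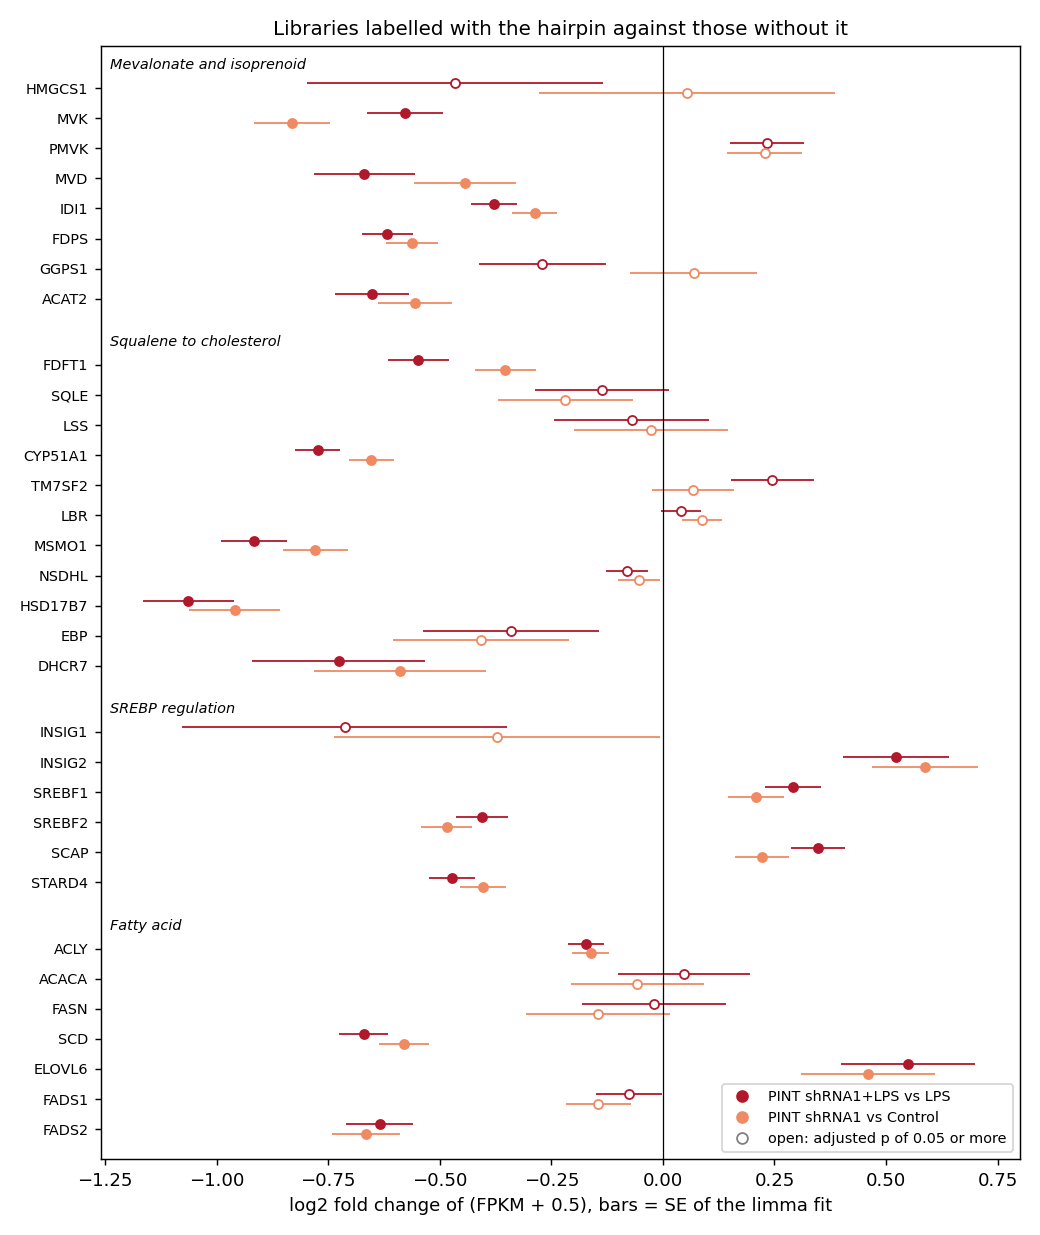
Log2 fold change of each of the 32 genes (horizontal axis, log2 of FPKM + 0.5, with bars for the SE of the limma fit) in PINT shRNA1+LPS against LPS (dark red) and PINT shRNA1 against Control (orange), ordered by role. Filled points passed the adjusted p threshold, and they are the same 19 genes in both comparisons, 15 to the left of 0 and INSIG2, SREBF1, SCAP and ELOVL6 to the right.

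Of the 8 genes that lead to the isoprenoid pyrophosphates, 5 (62.5%) fell in both comparisons and none rose. Of all genes tested, 11.6% fell under LPS and 10.3% without it. MVK (ENSG00000110921), the kinase that phosphorylates mevalonate, was at 5.16, 5.23 and 5.17 FPKM in the PINT shRNA1+LPS libraries, 4.3, 4.08 and 4.92 in the PINT shRNA1 libraries, 7.53, 8.04 and 8.41 in the LPS libraries and 8.85, 8.65 and 7.35 in the Control libraries. The libraries with the hairpin label had 5.23 FPKM at most and the others 7.35 at least. Its log2 fold change was -0.58 ± 0.085 against LPS and -0.83 ± 0.085 against Control (limma, adjusted p = 0.000595 and 6.4e-05). FDPS (ENSG00000160752), which makes farnesyl pyrophosphate, the last intermediate shared by sterols and isoprenoids, was at 52.9, 50.3 and 48.3 FPKM in the PINT shRNA1+LPS libraries, 52.5, 52.1 and 56.3 in the PINT shRNA1 libraries, 71.6, 78.7 and 83.4 in the LPS libraries and 78.4, 79.7 and 80 in the Control libraries. The groups with and without the label were again apart, with log2 fold changes of -0.62 ± 0.058 under LPS and -0.56 ± 0.058 without it (limma, adjusted p = 2.92e-05 and 6.3e-05). FDPS shares 693 bases (18.6%) of its exons with the antisense RNA RUSC1-AS1, which averaged 3.31 FPKM, and its pseudogenes were at 0.203 FPKM or less.

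ACAT2 (ENSG00000120437), the cytosolic thiolase that joins a pair of acetyl-CoA at the start of the route, was at 16.1, 17.5 and 17.1 FPKM in the PINT shRNA1+LPS libraries, 18.3, 19.6 and 19.4 in the PINT shRNA1 libraries, 25.1, 25.4 and 30.3 in the LPS libraries and 27.3, 31.4 and 26.3 in the Control libraries. The highest hairpin-labelled library was at 19.6 FPKM and the lowest of the others at 25.1. The log2 fold changes were -0.65 ± 0.083 and -0.55 ± 0.083 (limma, adjusted p = 0.000232 and 0.000724). ACAT2 overlaps the abundant gene TCP1 on the opposite strand over 397 bases (9.23% of its exons) and 2 further genes there, whose levels were not matched here, over 1141 and 1458 bases (26.5% and 33.9%), and whether reads were counted by strand is not stated. MVD (ENSG00000167508), which decarboxylates mevalonate pyrophosphate, was at 5.39, 7.14 and 6.32 FPKM in the PINT shRNA1+LPS libraries, 6.15, 6.89 and 7.48 in the PINT shRNA1 libraries, 11, 9.62 and 10.1 in the LPS libraries and 10.8, 8.94 and 8.72 in the Control libraries. That is a log2 fold change of -0.67 ± 0.11 under LPS and -0.44 ± 0.11 without it (limma, adjusted p = 0.00137 and 0.0148), with no overlap of groups. IDI1 (ENSG00000067064), the isomerase that supplies dimethylallyl pyrophosphate, fell the least of the 5, at 24.6, 23.4 and 21.8 FPKM in the PINT shRNA1+LPS libraries, 24.6, 24.4 and 23.4 in the PINT shRNA1 libraries, 28.9, 31.1 and 31.1 in the LPS libraries and 29.6, 29.1 and 29.9 in the Control libraries. Its replicates lay close together, so that a difference of -0.38 ± 0.051 under LPS and -0.29 ± 0.051 without it was still beyond their spread (limma, adjusted p = 0.000354 and 0.00211).

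From squalene to cholesterol, 5 of 11 genes (45.5%) fell in both comparisons and none rose, where 11.6% and 10.3% of all genes tested fell. The deepest drop of all 32 genes in both comparisons was that of HSD17B7. HSD17B7 (ENSG00000132196), a ketosteroid reductase of the sterol demethylation complex, was at 3.31, 4.04 and 3.62 FPKM in the PINT shRNA1+LPS libraries, 3.51, 3.88 and 4.1 in the PINT shRNA1 libraries, 7.15, 8.03 and 9.46 in the LPS libraries and 8.2, 7.71 and 7.82 in the Control libraries. The hairpin-labelled libraries had 4.1 FPKM at most and the others 7.15 at least. The log2 fold changes were -1.06 ± 0.10 and -0.96 ± 0.10 (limma, adjusted p = 3.64e-05 and 8.06e-05). On this scale of FPKM + 0.5, HSD17B7 was at 0.479-fold of LPS and 0.514-fold of Control. Its transcribed pseudogene HSD17B7P2 averaged 0.762 FPKM, so that reads split between the copies could touch these values. MSMO1 (ENSG00000052802), the methylsterol monooxygenase of the same complex, was at 30.8, 35.1 and 34 FPKM in the PINT shRNA1+LPS libraries, 34.2, 36.7 and 33.3 in the PINT shRNA1 libraries, 59.7, 59.3 and 71.4 in the LPS libraries and 59.6, 60.1 and 60 in the Control libraries. The levels with the label lay between 30.8 and 36.7 FPKM and those without it between 59.3 and 71.4, a difference of -0.92 ± 0.074 under LPS and -0.78 ± 0.074 without it (limma, adjusted p = 9.9e-06 and 3.69e-05).

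CYP51A1 (ENSG00000001630), the demethylase of lanosterol, had the smallest p of the 32 genes in both comparisons. It was at 38.1, 39.4 and 39.1 FPKM in the PINT shRNA1+LPS libraries, 38.1, 40.6 and 37.9 in the PINT shRNA1 libraries, 62.6, 66.5 and 71.7 in the LPS libraries and 60.6, 60.8 and 62.8 in the Control libraries. The difference was -0.77 ± 0.05 under LPS and -0.65 ± 0.05 without it (limma, adjusted p = 2.1e-06 and 8.91e-06). The annotation places another protein-coding transcript unit, AC000120.2, on 79.4% of its exons on the same strand, and reads cannot be told apart between them. FDFT1 (ENSG00000079459), squalene synthase, which commits farnesyl pyrophosphate to sterols, was at 16.8, 19 and 16.9 FPKM in the PINT shRNA1+LPS libraries, 18.1, 19.7 and 18.3 in the PINT shRNA1 libraries, 27.8, 23.8 and 26.2 in the LPS libraries and 23.3, 25 and 23.7 in the Control libraries. Every library with the label was below every other, with log2 fold changes of -0.55 ± 0.069 under LPS and -0.35 ± 0.069 without it (limma, adjusted p = 0.000213 and 0.00352). DHCR7 (ENSG00000172893), the reductase of the last step to cholesterol, was at 27.1, 29.2 and 34 FPKM in the PINT shRNA1+LPS libraries, 32.3, 27.9 and 30 in the PINT shRNA1 libraries, 50.7, 41.3 and 59.3 in the LPS libraries and 64.4, 39.5 and 36.8 in the Control libraries. The groups did not overlap, but Control replicate 1 was far above the other two Control libraries. The differences were -0.73 ± 0.19 and -0.59 ± 0.19 (limma, adjusted p = 0.0166 and 0.0438), and without Control replicate 1 the second was -0.34 (adjusted p = 0.111).

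The 6 regulators went both ways, with 2 (33.3%) lower and 3 (50%) higher in both comparisons. Over all genes tested, 11.6% were lower under LPS and 10.3% without it, and 17.7% and 16.9% were higher. SREBF2 (ENSG00000198911), the factor that drives the sterol genes and whose promoter sequence with TCACCCCAC is shown above, was at 17.8, 18.4 and 17 FPKM in the PINT shRNA1+LPS libraries, 16, 17.2 and 17.4 in the PINT shRNA1 libraries, 22.8, 22.9 and 25.4 in the LPS libraries and 24.8, 23.6 and 22.9 in the Control libraries. The highest library with the label was at 18.4 FPKM and the lowest of the others at 22.8. The log2 fold changes were -0.41 ± 0.058 and -0.48 ± 0.058 (limma, adjusted p = 0.000486 and 0.000175). STARD4 (ENSG00000164211), a cytosolic sterol carrier induced by SREBP, was at 34.7, 37.4 and 36.5 FPKM in the PINT shRNA1+LPS libraries, 39.6, 41.4 and 38.9 in the PINT shRNA1 libraries, 49, 51.9 and 50.3 in the LPS libraries and 56.7, 50.2 and 52.3 in the Control libraries. It too was lower with the label in every library, with log2 fold changes of -0.47 ± 0.052 under LPS and -0.40 ± 0.052 without it (limma, adjusted p = 8.77e-05 and 0.000282).

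INSIG2, SCAP and SREBF1 rose. INSIG2 (ENSG00000125629), which retains SCAP in the endoplasmic reticulum, was at 27.5, 26 and 27.1 FPKM in the PINT shRNA1+LPS libraries, 22.4, 20.9 and 26.5 in the PINT shRNA1 libraries, 17.5, 21.2 and 17.1 in the LPS libraries and 13.2, 18 and 14.9 in the Control libraries. The lowest hairpin-labelled value without LPS, 20.9 FPKM, was above the highest of Control, 18, and the same held under LPS, with log2 fold changes of 0.52 ± 0.12 and 0.59 ± 0.12 (limma, adjusted p = 0.00754 and 0.00445). SCAP (ENSG00000114650), the sterol-sensing escort of the SREBPs, was at 19.4, 19.7 and 17.9 FPKM in the PINT shRNA1+LPS libraries, 18.1, 17.6 and 18.9 in the PINT shRNA1 libraries, 15.7, 14.5 and 14.4 in the LPS libraries and 16.5, 15.6 and 14.5 in the Control libraries. Its difference was 0.35 ± 0.061 under LPS and 0.22 ± 0.061 without it (limma, adjusted p = 0.00167 and 0.0204). SREBF1 (ENSG00000072310), the other SREBP gene, was at 20.7, 18.6 and 20.5 FPKM in the PINT shRNA1+LPS libraries, 17.9, 18.3 and 17.6 in the PINT shRNA1 libraries, 16.5, 16 and 16.1 in the LPS libraries and 14.3, 15.3 and 16.9 in the Control libraries. The groups were apart in both comparisons but close, at 0.29 ± 0.063 and 0.21 ± 0.063 (limma, adjusted p = 0.00543 and 0.03). The pair of SREBP genes thus moved in opposite directions in both comparisons, SREBF2 down and SREBF1 up.

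Of the 7 fatty acid genes, 3 (42.9%) fell and 1 (14.3%) rose in both comparisons. Of all genes tested, 11.6% fell under LPS and 10.3% without it, and 17.7% and 16.9% rose. The share that rose was thus near that of all genes. SCD (ENSG00000099194) was at 101, 112 and 107 FPKM in the PINT shRNA1+LPS libraries, 100, 114 and 112 in the PINT shRNA1 libraries, 164, 167 and 178 in the LPS libraries and 163, 164 and 160 in the Control libraries. The difference was the largest in absolute level among the 32 genes, with log2 fold changes of -0.67 ± 0.055 and -0.58 ± 0.055 (limma, adjusted p = 1.11e-05 and 3.69e-05). FADS2 (ENSG00000134824), the delta-6 desaturase of polyunsaturated fatty acids, was at 7.85, 8.83 and 8.24 FPKM in the PINT shRNA1+LPS libraries, 8, 8.56 and 8.41 in the PINT shRNA1 libraries, 13.4, 13.3 and 12.8 in the LPS libraries and 14.3, 14.4 and 11.9 in the Control libraries. It was lower in every library with the label, with log2 fold changes of -0.63 ± 0.076 and -0.67 ± 0.076 (limma, adjusted p = 0.000152 and 0.000129). Its neighbour FADS1, the delta-5 desaturase, was not called in either comparison (-0.08 and -0.14), and the genes share 490 exon bases on opposite strands.

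ACLY (ENSG00000131473), which makes cytosolic acetyl-CoA from citrate for both routes, was at 61.5, 64.2 and 62.5 FPKM in the PINT shRNA1+LPS libraries, 61.1, 62.7 and 62.9 in the PINT shRNA1 libraries, 70.9, 69.3 and 72 in the LPS libraries and 65.8, 70.9 and 72.4 in the Control libraries. The replicates were tight and the drop small, -0.17 ± 0.041 and -0.16 ± 0.041 (limma, adjusted p = 0.00927 and 0.014). ELOVL6 (ENSG00000170522), the elongase from palmitate to stearate, moved the other way and was at 7.04, 9.01 and 8.65 FPKM in the PINT shRNA1+LPS libraries, 8.88, 7.64 and 8.93 in the PINT shRNA1 libraries, 4.87, 7.14 and 4.6 in the LPS libraries and 6.6, 5.42 and 6.06 in the Control libraries. Under LPS the groups overlapped, since PINT shRNA1+LPS replicate 1 was below LPS replicate 2. The log2 fold changes were 0.55 ± 0.15 and 0.46 ± 0.15 (limma, adjusted p = 0.0186 and 0.0426).

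**Figure D3:**
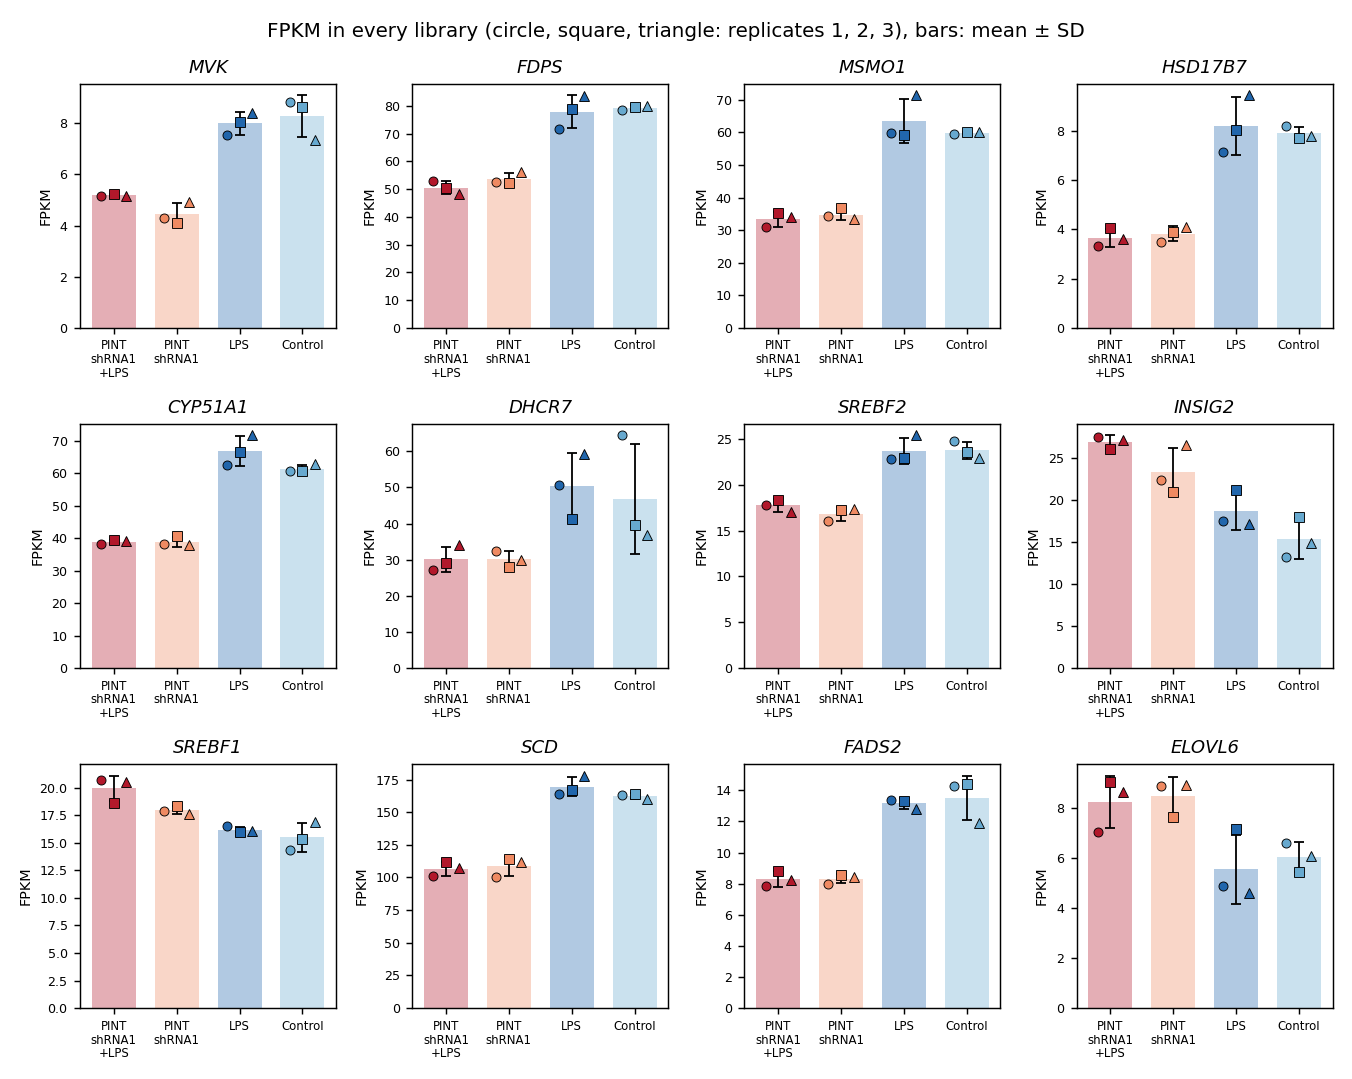
FPKM (vertical axes, from 0) of 12 of the 19 genes that passed the test in both hairpin comparisons, in every library, with circles, squares and triangles for replicates 1, 2 and 3 and bars and error bars for mean ± SD of 3 libraries. MVK, FDPS, MSMO1, HSD17B7, CYP51A1, SREBF2, SCD and FADS2 fall into a low and a high level by hairpin label with no overlap, INSIG2 and SREBF1 are higher with the label, DHCR7 has 1 high Control library at 64.4, and the ELOVL6 groups overlap under LPS.

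Some of these calls depended on single libraries or on the fit. In PINT shRNA1 against Control, DHCR7 missed the threshold in 11 of 24 alternative settings, among them leaving out any of the 3 PINT shRNA1 libraries (-0.64, -0.54 and -0.59 without replicates 1, 2 and 3) or libraries of the other groups, which enter only through the spread (LPS replicate 1 and each PINT shRNA1+LPS library, value unchanged). Under LPS it missed the threshold without LPS replicate 3 (-0.60), PINT shRNA1+LPS replicate 1 (-0.66) or replicate 2 (-0.71). ELOVL6 missed it in 13 of 24 settings without LPS, among them leaving out any Control library (0.52, 0.39 and 0.47 without replicates 1, 2 and 3), PINT shRNA1 replicate 1 (0.43) or 3 (0.42), or PINT shRNA1+LPS replicate 2 or 3 (value unchanged). Under LPS it did so in 5 of 24, among them without LPS replicate 1 (0.48) or 3 (0.44) and without PINT shRNA1+LPS replicate 2 (0.48) or 3 (0.51). SREBF1 missed it in 9 of 24 in PINT shRNA1 against Control, with 0.16 after median scaling and 0.17 after quantile normalization. Leaving out Control replicate 1 or 2 (0.16 and 0.20) or PINT shRNA1 replicate 1, 2 or 3 (0.21, 0.20 and 0.22) ended the call too. SCAP missed it there without Control replicate 3 (0.18), PINT shRNA1 replicate 1 (0.23) or PINT shRNA1 replicate 3 (0.20). MVD did so without Control replicate 1 (-0.35) or PINT shRNA1 replicate 1 (-0.37), and ACLY without Control replicate 3 (-0.13). SCAP and ACLY also missed it there in a fit of only the groups compared (limma, adjusted p = 0.0525 and 0.0594). Each kept its direction. The other 13 of the 19 genes passed the test in both comparisons under every alternative setting tried.

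Among the 13 genes that did not pass the test, some were measured tightly with a log2 fold change near 0 and others too loosely to tell. NSDHL, a sterol dehydrogenase, and LBR, a sterol reductase that is also a nuclear envelope protein, were measured tightly. The 95% interval of the log2 fold change was -0.18 to 0.02 under LPS and -0.16 to 0.05 without it for NSDHL, and -0.06 to 0.14 and -0.01 to 0.19 for LBR. A drop the size of that in MSMO1 lies outside these intervals. ACACA, which makes malonyl-CoA, and FASN, the fatty acid synthase that uses it, had intervals of -0.28 to 0.38 and -0.38 to 0.34 under LPS, and -0.38 to 0.27 and -0.50 to 0.21 without it. The drop of SCD lies outside those of ACACA under LPS and without it, and outside those of FASN. LSS, the cyclase that forms lanosterol, had intervals of -0.45 to 0.31 and -0.41 to 0.36.

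In HMGCS1 and INSIG1, single libraries stood apart within groups. HMGCS1 (ENSG00000112972), the synthase early in the mevalonate route, was at 32.6, 36.6 and 16.6 FPKM in the PINT shRNA1+LPS libraries, 33.4, 38.5 and 34.6 in the PINT shRNA1 libraries, 44, 47.3 and 25.5 in the LPS libraries and 41.4, 42.9 and 22.4 in the Control libraries. Replicate 3 was the low one in each of the 3 groups other than PINT shRNA1, at 16.6, 25.5 and 22.4 FPKM. The log2 fold changes, -0.47 ± 0.33 under LPS and 0.05 ± 0.33 without it, had 95% intervals of -1.2 to 0.27 and -0.68 to 0.78 (limma, adjusted p = 0.329 and 0.926). INSIG1 (ENSG00000186480), the partner of INSIG2 and itself a strong SREBP target, was at 19, 21.3 and 33.4 FPKM in the PINT shRNA1+LPS libraries, 17.9, 39 and 33 in the PINT shRNA1 libraries, 47.8, 48.2 and 26.5 in the LPS libraries and 45.7, 47.1 and 23.5 in the Control libraries. The lowest LPS and Control libraries were replicate 3, at 26.5 and 23.5 FPKM, as for HMGCS1, while in the hairpin-labelled groups replicate 1 was lowest. INSIG1 had log2 fold changes of -0.71 ± 0.36 and -0.37 ± 0.36 (limma, adjusted p = 0.171 and 0.494), and its intervals, -1.52 to 0.09 and -1.18 to 0.43, hold both 0 and a drop as large as any seen.

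SQLE, the squalene epoxidase, a controlled step of the route, was at 30.4, 33.3 and 42.7 FPKM in the PINT shRNA1+LPS libraries, 31, 33.5 and 31.8 in the PINT shRNA1 libraries, 34.5, 34 and 49 in the LPS libraries and 40.3, 33.2 and 39.2 in the Control libraries. The highest libraries of PINT shRNA1+LPS and of LPS were replicate 3 in both, and the intervals were -0.47 to 0.20 and -0.55 to 0.11. EBP, the sterol isomerase, was at 10.6, 12.8 and 12 FPKM in the PINT shRNA1+LPS libraries, 10.7, 16.7 and 10.9 in the PINT shRNA1 libraries, 18.9, 12.2 and 14.7 in the LPS libraries and 19.1, 18.1 and 13.5 in the Control libraries. It was lower on average with the label (-0.34 and -0.41) but with overlap, and in PINT shRNA1 against Control it passed the test when PINT shRNA1 replicate 2 was left out (-0.61, limma, adjusted p = 0.0383). PMVK, the kinase after MVK, was higher in every library with the label in both comparisons (0.23 ± 0.084 and 0.23 ± 0.084) without reaching the threshold (limma, adjusted p = 0.0578 and 0.0663), and it did so after scaling to a common total (0.0361 and 0.0397), without PINT shRNA1 replicate 3 under LPS (0.0497) and without LPS replicate 3 in the other (0.0481). TM7SF2, the other sterol C14 reductase beside LBR, had 0.25 ± 0.092 under LPS and 0.07 ± 0.092 without it, and passed the test under LPS without LPS replicate 2 (0.31, limma, adjusted p = 0.0383). FADS1 passed it in PINT shRNA1 against Control without Control replicate 1 (-0.23, limma, adjusted p = 0.0175). GGPS1, which makes geranylgeranyl pyrophosphate, had -0.27 ± 0.14 and 0.07 ± 0.14, and 37.3% of its exon bases lie also in TBCE on the same strand.

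**Figure D4:**
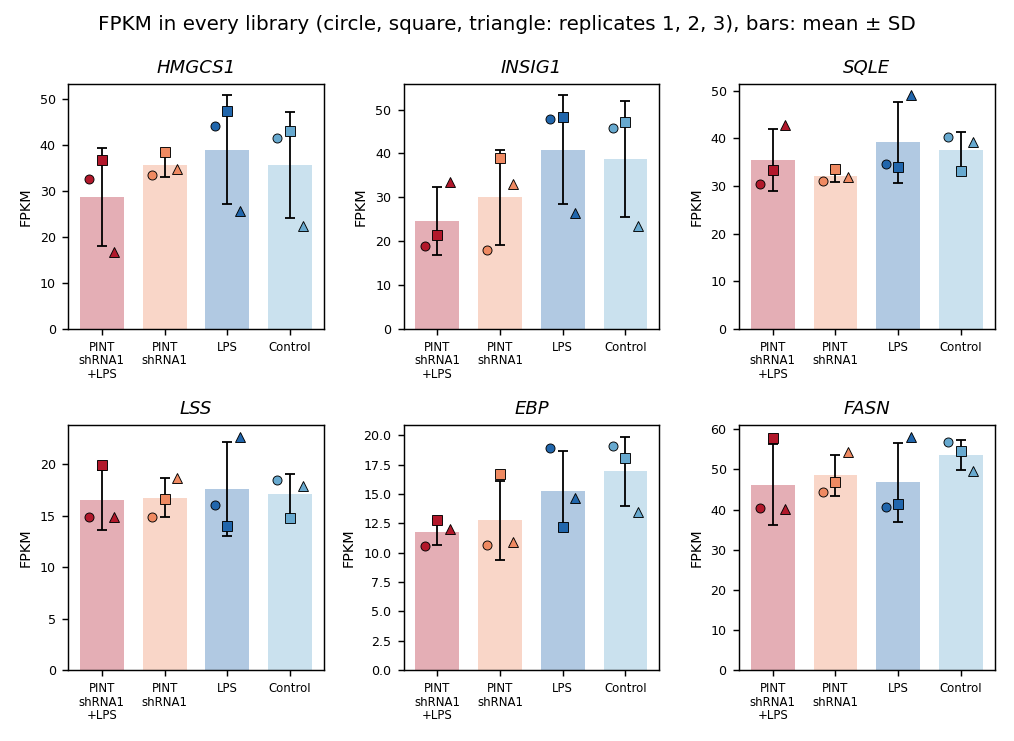
FPKM (vertical axes, from 0) of 6 genes that did not pass the test in either hairpin comparison, in every library, with circles, squares and triangles for replicates 1, 2 and 3 and bars and error bars for mean ± SD of 3 libraries. HMGCS1 and INSIG1 have replicate 3 at 22.4 to 26.5 FPKM in LPS and Control, well below the other two libraries of those groups, and all 6 genes overlap between groups.

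Comparing the hairpin comparisons with each other, which share no library, the log2 fold changes of the 32 genes had the same sign in 29, with a Pearson r of 0.926 and a Spearman rho of 0.902 across genes. Over all 17214 genes the sign was the same in 77.3%, with an r of 0.693 and a rho of 0.689, and 19.3% of all genes were called the same way in both, against 59.4% of the 32. The calls are not separate in the same way, since the spread of each gene was estimated from all 12 libraries for both comparisons. Genes of one pathway are also not independent, so these are descriptions. The 17214 genes were not matched to the 32 for expression level, and the part of expression level in these differences was not tested. HMGCS1, GGPS1 and ACACA were the 3 with opposite signs, and none of them was called in either. The difference between the comparisons was tested directly as the interaction. None of the 32 genes passed it (limma, lowest adjusted p = 0.666, for MVK at 0.25 ± 0.12), where 0.128% of all genes passed. None of the 32 was under 0.05 before adjustment, where 1333 of all 17214 genes were. The interval of the interaction was narrow for CYP51A1 (-0.28 to 0.04) and SCD (-0.26 to 0.08) and wide for INSIG1 (-1.48 to 0.80) and HMGCS1 (-1.55 to 0.52).

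None of the 32 genes passed the test on exposure to LPS for 4 h, with or without the hairpin label. In PINT shRNA1+LPS against PINT shRNA1 the lowest adjusted p was 0.463, for STARD4 (limma), and 0.186% of all genes were called. Before adjustment, 3 of the 32 were under 0.05, as were 1508 of all 17214 genes tested, a share near that of the 32. In LPS against Control the lowest adjusted p was 0.249, for CYP51A1 (limma), with 2.76% of all genes called. There 3 of the 32 were under 0.05 before adjustment, as were 2896 of all 17214 genes, a larger share than that of the 32. No other tool was run. The median log2 fold change of the 32 was -0.048 in the first and 0.0095 in the second, against -0.037 and -0.038 over all genes. Of all genes called in LPS against Control, 271 were higher and 204 lower, which became 450 and 123 with median scaling and 299 and 128 with quantile normalization.

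The 3 genes under 0.05 before adjustment in LPS against Control were CYP51A1 (0.12 ± 0.05), INSIG2 (0.27 ± 0.12) and TM7SF2 (-0.21 ± 0.092), and their libraries overlapped between groups. In PINT shRNA1+LPS against PINT shRNA1 they were STARD4 (-0.14 ± 0.052), MVK (0.21 ± 0.085) and SREBF1 (0.15 ± 0.063). In that comparison 5 of the 32 genes had no overlap between groups, these 3 and also ACAT2 and LBR. How many of all genes had none was not counted, so nothing was drawn from this. For well-measured genes the intervals leave room for small changes only. SCD had -0.15 to 0.09 with the hairpin label and -0.06 to 0.18 without it, FDPS had -0.21 to 0.04 and -0.16 to 0.10, and MSMO1 had -0.22 to 0.10 and -0.09 to 0.24. For HMGCS1 they were -1.11 to 0.35 and -0.60 to 0.87, so that a change of 1.5-fold either way on LPS was not detectable in that gene without the label.

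**Figure D5:**
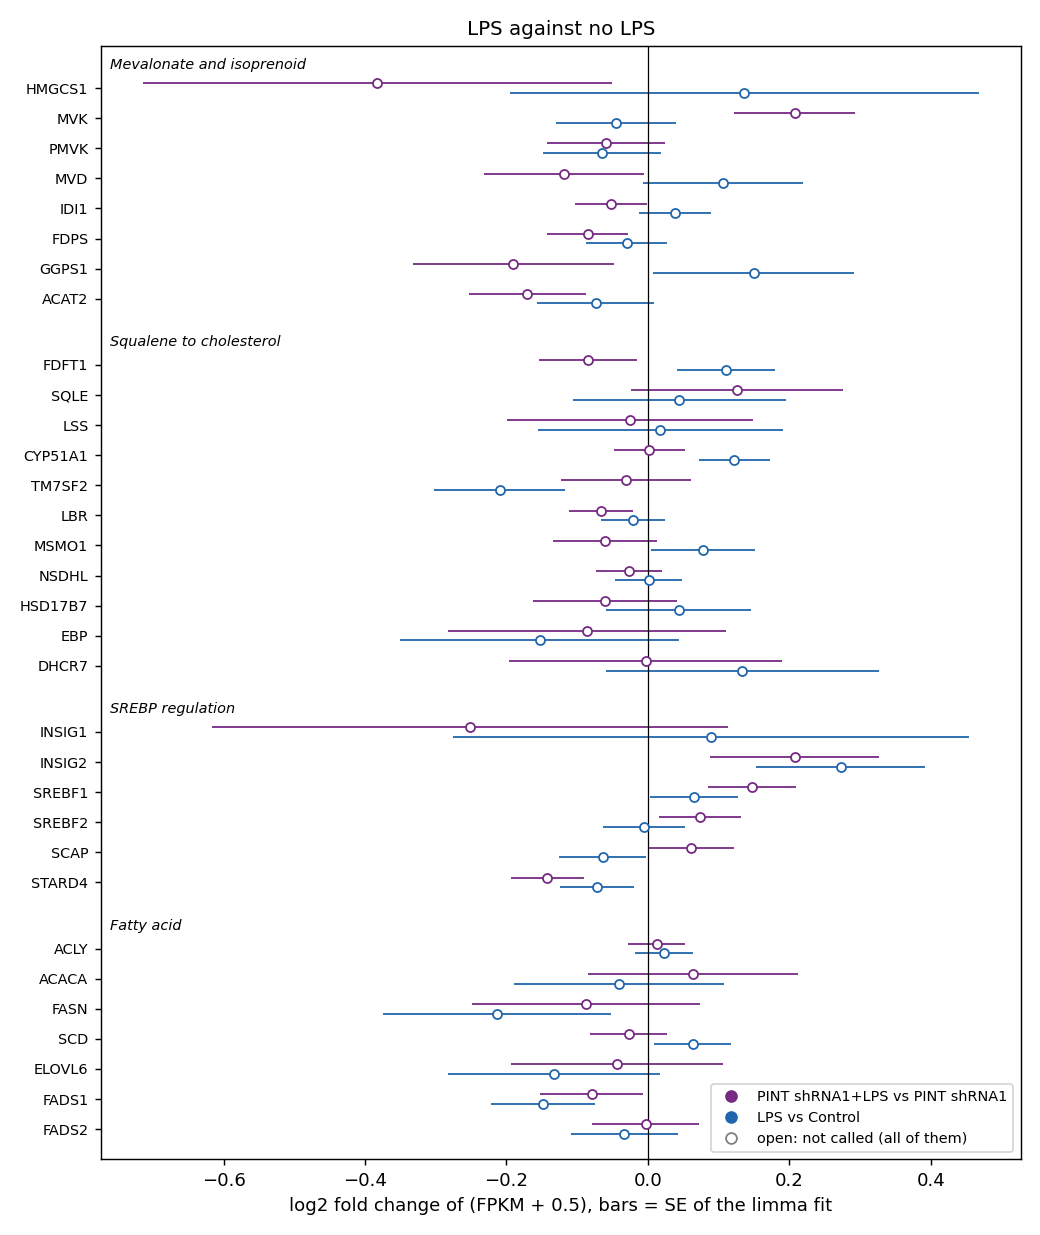
Log2 fold change of each of the 32 genes (horizontal axis, log2 of FPKM + 0.5, with bars for the SE of the limma fit) in PINT shRNA1+LPS against PINT shRNA1 (purple) and LPS against Control (blue), ordered by role. All points are open, since none of the 32 genes passed the adjusted p threshold, and the widest bars are those of HMGCS1 and INSIG1.

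Genes next to the pathway were read from the same fit by lists. These lists too were drawn up with earlier results of these data known, so their shares are descriptions and not separate support. Of 7 further sterol synthesis genes, 5 (71.4%) fell under LPS and 4 (57.1%) without it, where 11.6% and 10.3% of all genes tested fell, and none rose. ERG28, the scaffold that holds the sterol demethylation enzymes together, had -0.50 ± 0.065 and -0.58 ± 0.065 (limma, adjusted p = 0.000274 and 0.000118). SC5D, the desaturase before DHCR7, had -0.42 ± 0.091 and -0.35 ± 0.091.

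Sterol uptake, transport and SREBP processing had 4 of 20 tested genes (20%) lower and 1 (5%) higher in each comparison, where 11.6% and 10.3% of all genes tested were lower and 17.7% and 16.9% higher. APOE, an apolipoprotein of cholesterol export, rose, by 0.92 ± 0.061 under LPS and 0.48 ± 0.061 without it (limma, adjusted p = 2.52e-06 and 0.000279). NR1H2, a liver X receptor named by its p in PINT shRNA1 against Control, had -0.28 ± 0.067 there.

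Other fatty acid synthesis and activation genes had 4 of 20 tested lower and 1 higher under LPS (20% and 5%, against 11.6% and 17.7% of all genes tested), and 6 lower and 2 higher without it (30% and 10%, against 10.3% and 16.9%). ELOVL7, an elongase of long saturated chains, fell by the most (-0.92 ± 0.097 and -0.60 ± 0.097, limma, adjusted p = 6.59e-05 and 0.00111). CBR4, a subunit of the mitochondrial fatty acid synthesis reductase, had -0.41 ± 0.076 and -0.56 ± 0.076, ACSS2, which makes acetyl-CoA from acetate, -0.37 ± 0.099 and -0.41 ± 0.099, and ACSL4, an activating enzyme of long chains, -0.32 ± 0.039 and -0.20 ± 0.039.

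Glycerolipid synthesis, which uses the fatty acids made, had 4 of 12 genes (33.3%) higher and 1 (8.33%) lower in each comparison, where 17.7% and 16.9% of all genes tested were higher and 11.6% and 10.3% lower. The share that fell was thus near that of all genes. GPAM, the first acyltransferase of the route, was at 5.09, 4.96 and 5.03 FPKM in the PINT shRNA1+LPS libraries, 5.74, 5.75 and 5.25 in the PINT shRNA1 libraries, 2.87, 3.35 and 3.47 in the LPS libraries and 3.04, 3.53 and 3.33 in the Control libraries, a log2 fold change of 0.57 ± 0.08 and 0.68 ± 0.08 (limma, adjusted p = 0.000448 and 0.000166). DGAT1, which completes triglyceride, had 0.56 ± 0.088 and 0.50 ± 0.088, and LPIN3, a phosphatidate phosphatase, 0.57 ± 0.067 and 0.53 ± 0.067. The fourth was AGPAT1 under LPS (0.30 ± 0.07) and LPIN1 without it (0.31 ± 0.087). The gene that fell was PCYT2, of phosphatidylethanolamine synthesis, in both. In the isoprenoid branch, which takes its substrate from FDPS and GGPS1, 2 of 12 genes (16.7%) were higher and none lower in each comparison, a share called higher that is near the 17.7% under LPS and 16.9% without it over all genes tested. NUS1, a subunit of the dolichol-forming transferase, had 0.16 ± 0.038 and 0.22 ± 0.038, PDSS1, of ubiquinone side chain synthesis, 0.23 ± 0.077 under LPS, and RABGGTB, a geranylgeranyl transferase subunit, 0.19 ± 0.058 without it (limma, adjusted p = 0.00917, 0.00188, 0.0448 and 0.0345 in that order). DHDDS, FNTA and RABGGTA, named by the same rule, were not called. None of the genes of these 5 lists passed the test in the LPS comparisons or the interaction.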

How the data were processed

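RNA of SW480 cells was sequenced in 4 groups of 3 libraries. The labels list 15 samples, because each PINT shRNA1 RNA number has 2, but only 1 table column exists for each number. The labels do not say what became of the second sample. If a column holds both, its spread is not of the same kind as in the other groups. The fit nevertheless took 1 spread per gene from all groups. The table's other 6 value columns were left aside. The deposited values are FPKM per gene computed by the authors. Fastp, HISAT2 2.1.0, StringTie 1.3.4d and GRCh37/hg19 are named per the submitters' processing notes, with no role or order given. Counting by strand is not stated in the sources used here. FPKM relates each gene to the library's total, so a few abundant genes can shift all others, and median scaling, quantile normalization and a common total were tried for that reason.

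From the deposited FPKM, log2(FPKM + 0.5) was tested for the 17214 genes that reached 0.5 FPKM in 3 or more of the 12 libraries, using limma 3.58.1 in R 4.3.3 (group means of all 12 libraries, intensity trend, two-sided, Benjamini-Hochberg over all genes tested, threshold 0.05). A log2 fold change on this scale understates the change of low genes. Intervals are 95% of the same fit. Relative depth is an estimate, the commonest ratio between libraries among low values. That ratio was held by 37 to 65 of the 4340 to 5546 genes compared for a library. No counting error of a gene can be had from FPKM. The pipeline was tested on simulated data. Where a symbol repeats in the table (2023 repeated entries), the row with the highest mean was used. Overlapping genes and pseudogenes were read from GENCODE 29, which is of another build and gave no coordinates here (ACACA was matched by name). Promoters came from RefSeq (GRCh38.p14), of which 28 of the 32 genes had 1 or more.

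All 32 genes are named in the hairpin comparisons. For LPS and the interaction, the text names those under 0.05 before adjustment, the lowest p, and genes chosen for their intervals or signs after their values were seen, and the plot of LPS fold changes shows all 32. Per-library values are given for those with the smallest p among the genes called in both hairpin comparisons, up to 16. DHCR7, ELOVL6, SREBF1, HMGCS1, INSIG1, SQLE and EBP were added in full after their values were seen, as was GPAM. From each other list, up to 4 genes with the smallest p in each hairpin comparison are named, and PCYT2 after its values were seen. Some genes that this rule picks are not reported here. The members and lists were chosen with earlier results of these data known.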

Additional observations from a re-analysis of the deposited data

How the results depend on the processing

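No called log2 fold change of the 32 genes reversed over 24 alternatives. These were scaling, pseudocounts of 0.1 and 1, filters, no intensity trend and robust moderation. A replicate block, only the groups compared, weights per group and each library left out were the others. The weights were set per group, so no single library was weighted within its group. Of 3840 values, 3784 kept their side of the threshold, 49 lost and 7 gained a call, and 122 of those not called changed sign. Genes of the 32 called numbered 17 to 20 in PINT shRNA1+LPS against LPS, 14 to 20 in PINT shRNA1 against Control, and 0 in the LPS comparisons and the interaction under every alternative. The count over all genes moved more for LPS. In LPS against Control, 475 genes became 311 with the replicate block, 127 in a fit of only the groups compared and 264 with weights per group. With single libraries left out they became 288 to 411 (295 without Control replicate 2 and 288 without LPS replicate 3). In PINT shRNA1+LPS against PINT shRNA1, 32 became 65 with median scaling, 57 with quantile normalization and 18 without the intensity trend. They became 17 with the replicate block and 65 with weights per group. With single libraries left out they became 19 to 40 (19 and 20 without PINT shRNA1 replicates 1 and 2, and 21 without PINT shRNA1+LPS replicate 1 or 2). The interaction count of 22 became 14 with the replicate block. The cause was not tested. Over all genes tested, same-numbered libraries did not deviate together (correlations of -0.048 to 0.057, against -0.058 to 0.046 for other numbers). Of 12 libraries, 4 correlated best with one of their own number, so the numbers were not taken as pairs. In HMGCS1, INSIG1 and SQLE, however, replicate 3 stood apart in more than 1 group, as given above. The block ended only the call of ELOVL6 in PINT shRNA1 against Control (0.46, limma, adjusted p = 0.0685). Since FPKM holds no counts, depth sets a limit here that cannot be stated per gene.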
